A study of Mus musculus with 4 samples.

Results

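Ret and the 5 genes of the GDNF family co-receptors (Gfra1, Gfra2, Gfra3, Gfra4 and Gfral) were taken by symbol from 41388 genes measured in sorted sensory neurons of the mouse. Of these 6 genes, 5 passed the filter on low counts and Gfral had no count in any library. EGFP-positive cells were sorted by flow cytometry from dorsal root ganglia of segments T11 to S1 of C57BL/6 mice labelled postnatal day 2, and the RNA was amplified and sequenced. Every library carries the genotype label Tg(Ret-EGFP)SJ/, while the design text describes heterozygotes with EGFP placed in the Ret locus, so under that text every animal of both groups would carry 1 reporter allele of Ret. The level of EGFP itself, EGFP-negative cells and mice without the reporter were not analysed here. The 4 libraries, each labelled as the pooled ganglia of 1 animal, fall into pairs by how the pool was described. The embryo pair was labelled with the letters B and C (called embryo B and embryo C here, both male, 20 ganglia each). The P2 mouse pair was a male A (20 ganglia) and a female A (40 ganglia), called the P2 male and the P2 female. The labels give 1 animal for the 40 ganglia of the P2 female too. Why this number differs from the 20 of each male cannot be told from them. All 4 libraries carry the same stage label, so what the word embryo marks cannot be told from the labels. The only female stands in the P2 mouse pair.

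Ret is a receptor tyrosine kinase that does not bind its ligands alone. A GDNF family ligand first binds a co-receptor held at the membrane by a lipid anchor, and the pair then brings Ret molecules together so that they phosphorylate each other. GDNF prefers the co-receptor Gfra1, neurturin Gfra2, artemin Gfra3 and persephin Gfra4, while Gfral is the receptor of GDF15 and is known from the hindbrain. In the dorsal root ganglion, Ret is known from nonpeptidergic nociceptors and from a class of low-threshold mechanoreceptors that express it early. Gfra3 is known from peptidergic nociceptors, and Gfra1 also from Schwann cells.

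Start-site windows of 300 bases (250 before and 50 after the start, RefSeq, GRCm38.p6) were found for 3 of the 6 genes, Gfra1, Gfra4 and Gfral, and not for Ret, Gfra2 and Gfra3. They are shown because they belong to a co-receptor that differed between the groups, a scarce one and one with no count. Each lies on the minus strand and is written in the direction of transcription. Gfra4 has 2 windows, of which the second is shown because it holds the only motif match of the 4 windows. Capitals mark matches on either strand to the motifs searched, TGTGGT (the core bound by Runx factors) and GGGCGG (the GC box), which do not overlap each other.
Gfra1, chr19:58455349-58455648: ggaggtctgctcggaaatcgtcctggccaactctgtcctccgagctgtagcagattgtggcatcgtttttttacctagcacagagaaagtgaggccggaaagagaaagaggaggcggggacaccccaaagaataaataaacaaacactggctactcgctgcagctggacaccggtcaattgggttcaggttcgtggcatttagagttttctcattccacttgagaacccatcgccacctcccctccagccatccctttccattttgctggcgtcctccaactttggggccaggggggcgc
Gfra4, chr2:131042633-131042932: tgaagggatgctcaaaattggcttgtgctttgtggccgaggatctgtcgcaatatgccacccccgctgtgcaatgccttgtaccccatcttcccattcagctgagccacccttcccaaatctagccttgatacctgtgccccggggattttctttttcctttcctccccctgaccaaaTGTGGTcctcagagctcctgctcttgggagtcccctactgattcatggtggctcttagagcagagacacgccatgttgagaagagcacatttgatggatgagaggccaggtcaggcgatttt
Gfral, chr9:76213608-76213907: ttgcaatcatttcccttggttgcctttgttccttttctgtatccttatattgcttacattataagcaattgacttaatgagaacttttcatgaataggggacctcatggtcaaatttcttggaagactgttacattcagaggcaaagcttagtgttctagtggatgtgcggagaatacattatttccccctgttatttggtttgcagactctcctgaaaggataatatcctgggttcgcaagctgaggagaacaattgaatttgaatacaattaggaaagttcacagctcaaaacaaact

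The Gfra1 window held 12 CpG dinucleotides at 54% GC, the Gfra4 window shown 6 at 52.7%, the other Gfra4 window 2 at 55.7%, and the Gfral window 2 at 37.7%. Over all 32851 windows the medians were 7 CpG and 52.7% GC. TGTGGT stood once in the Gfra4 window shown and in none of the other 3 windows, and 16.8% of all windows held it. GGGCGG stood in none of the 4 windows, against 35.7% of all windows. These are matches of letters and were not tested against the expression values.

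Between 17388493 and 28066448 gene counts stood behind a library, with no molecular identifiers, so count-based limits cover counting error only. Markers of sensory neurons were present in every library, and all 13 fixed markers had counts. Their sum stood between 12905 and 13821 CPM (counts scaled to the library total) in the embryo pair and between 8492 and 8881 CPM in the P2 mouse pair, and their median between 675 and 820 CPM with the pairs overlapping. All 13 Schwann cell markers had counts too, with sums between 3018 and 3037 CPM in the embryo pair and between 4993 and 7891 CPM in the P2 mouse pair. The sums of 6 fibroblast markers ran from 295 to 318 CPM against 1374 to 1515 CPM, and those of 8 immediate early genes from 204 to 328 CPM against 826 to 1072 CPM. Mitochondrially encoded genes took at most 1.32% of counts in the embryo pair and at least 2.40% in the P2 mouse pair. The 5 markers of sympathetic neurons, which also carry Ret, summed to at most 1.32 CPM. Of the 4 spinal motor neuron markers, Mnx1 and Chat were at 0 in all 4 libraries, while Isl2, at 100 to 151 CPM, and Slc5a7, at 6.53 to 11.5 CPM, had counts in each, so that the list summed to between 112 and 158 CPM. In RNA from bulk cells, fewer cells of a type and less RNA per cell cannot be told apart, and the part of these differences in the results below was not tested.

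Ret itself, the signalling subunit, lies on chromosome 6 (118151748 to 118197744, GRCm38, minus strand, ENSMUSG00000030110), and its 7.34 kb of exons share no 50-base word with another annotated gene. Its level was 37.0 RPKM in embryo B, 32.7 in embryo C, 31.6 in the P2 male and 31.8 in the P2 female (RPKM is CPM per kilobase of exon). The P2 mouse libraries lay close together and just below embryo C, while embryo B stood highest. The counts behind these values ran from 4038 to 6546, so the counting error was 1.57% or less. Averaged over the 4 libraries, Ret ranked 1827th of the 25075 genes with a count.

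Gfra3, the artemin co-receptor, was the most abundant receptor subunit by RPKM (chromosome 18, 34689903 to 34720387, ENSMUSG00000024366). It stood at 204 RPKM in embryo B and 234 in embryo C, and at 116 in the P2 male and 137 in the P2 female. Both embryo libraries were above both P2 mouse libraries, and even the lowest RPKM was above every RPKM of Ret. By CPM, which is not divided by exon length, Gfra3 in the P2 male (231) was just below Ret (232). Gfra2, the neurturin co-receptor (chromosome 14, 70890130 to 70979838, ENSMUSG00000022103), followed Ret in the order of levels by RPKM. Its values were 25.7 RPKM in embryo B, 29.2 in embryo C, 14.2 in the P2 male and 14.4 in the P2 female, again with no overlap between the pairs.

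Gfra1, the GDNF co-receptor (chromosome 19, 58235604 to 58455909, ENSMUSG00000025089), had 14.4 RPKM in embryo B, 12.3 in embryo C, 9.61 in the P2 male and 10.0 in the P2 female. The embryo libraries were the higher ones here too. Its 416 exon bases shared with the opposite-strand gene Gm16277 carried no count for that gene in any library. The persephin co-receptor gene Gfra4 (chromosome 2, 131039632 to 131043088, ENSMUSG00000027316) was scarce, at 1.81 RPKM in embryo B, 2.13 in embryo C, 1.81 in the P2 male and 2.24 in the P2 female, from 68 to 136 counts per library. These pairs overlapped. Gfral (chromosome 9, 76164102 to 76213657, ENSMUSG00000059383) had 0 counts in all 4 libraries, which allows up to 3 counts, or between 0.107 and 0.173 CPM, in a library.

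The order of levels per length was the same in each of the 4 libraries, with Gfra3 first, then Ret, Gfra2, Gfra1, Gfra4 and Gfral. By CPM the order differed between libraries. There Gfra1 stood above Gfra2 in the P2 male (52.6 against 49.2) and in the P2 female (54.8 against 49.7). Which unit lies nearer to the number of molecules in this amplified RNA was not tested. Over the 4 libraries the means were 173 ± 55.4 RPKM for Gfra3, 33.3 ± 2.53 for Ret, 20.9 ± 7.75 for Gfra2, 11.6 ± 2.22 for Gfra1 and 2.00 ± 0.221 for Gfra4 (SD, n = 4). Gfra2 and Gfra1 were neighbours whose ranges overlapped, since Gfra2 in the P2 male (14.2 RPKM) was below Gfra1 in embryo B (14.4 RPKM). The other neighbours had ranges that did not overlap. The ligands of these receptors were near absent from the sorted cells. Gdnf, Nrtn, Artn, Pspn and Gdf15 had between 0 and 6 counts in a library, the highest being Nrtn in the P2 female, and none passed the filter on low counts.

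**Figure D1:**
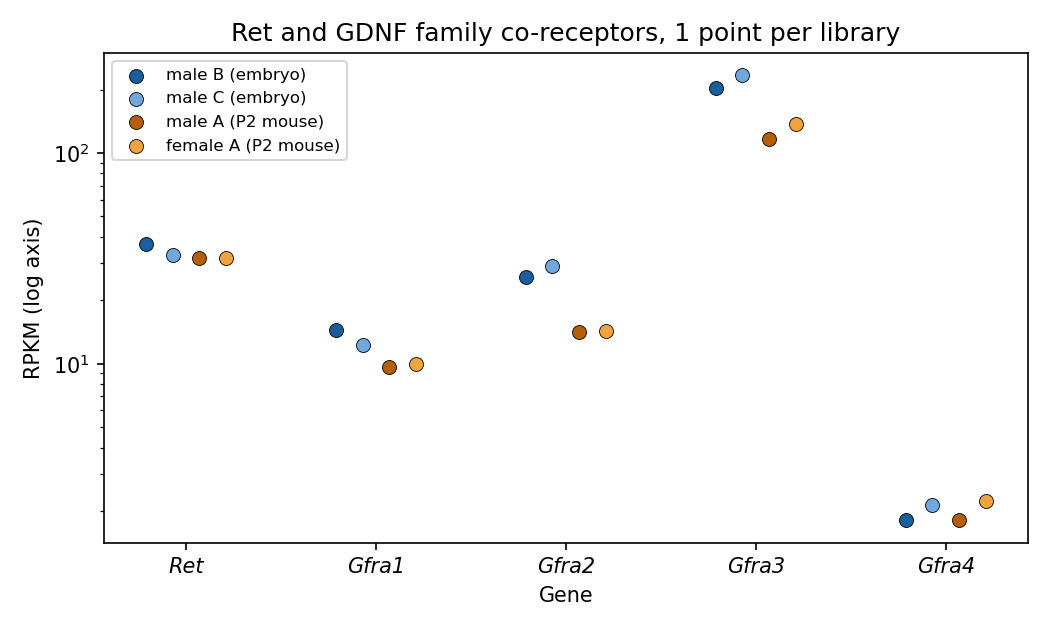
Level of each gene in RPKM on a log axis, with 1 point per library (blue for the embryo pair, orange for the P2 mouse pair); Gfral, at 0 counts, is not drawn. Gfra3 stands highest in every library, between 116 and 234 RPKM, and the blue points of Gfra1, Gfra2 and Gfra3 all lie above the orange ones.

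The first comparison set the P2 mouse pair against the embryo pair, the grouping that the pool labels give. Gfra2, Gfra3 and Gfra1 were lower in the P2 mouse pair, Ret did not pass the test and Gfra4 showed no difference beyond its error. The edgeR quasi-likelihood test was fitted over 15568 genes with Benjamini-Hochberg adjustment at 0.05, with 2 libraries a group. It called 3 of the 5 tested genes lower, against 20.0% of all genes tested, and none higher, against 22.3%. With sex as a term it called 2 of the 5 lower, against 10.4% of all genes (13.3% were higher). The scaled CPM of the pairs did not overlap, with the P2 mouse pair lower, for 4 of the 5, against 35.8% of all genes (37.4% with the P2 mouse pair higher, 73.2% in either direction). The median log2 fold change of the 5 was -0.56, beside 0.018 over all genes tested. With 42.3% of all genes called in 1 direction or the other, a call by itself sets none of these genes apart.

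Gfra2 had the largest change of the 5. Its log2 fold change was -1.06 (SE 0.115, edgeR adjusted p = 0.000415), a level 2.08-fold lower in the P2 mouse pair, and 7.62% of all tested genes had a lower value. Gfra3 fell by 0.91 (SE 0.111, edgeR adjusted p = 0.000646), or 1.87-fold, with 10.9% of genes below it. Gfra1 fell by 0.56 (SE 0.122, edgeR adjusted p = 0.00832), or 1.47-fold. Ret stood at -0.25 (SE 0.0942, edgeR adjusted p = 0.0660). Gfra4 stood at -0.074 (SE 0.273, edgeR adjusted p = 0.852), an error wide enough to hold a change of the size seen for Gfra1.

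**Figure D2:**
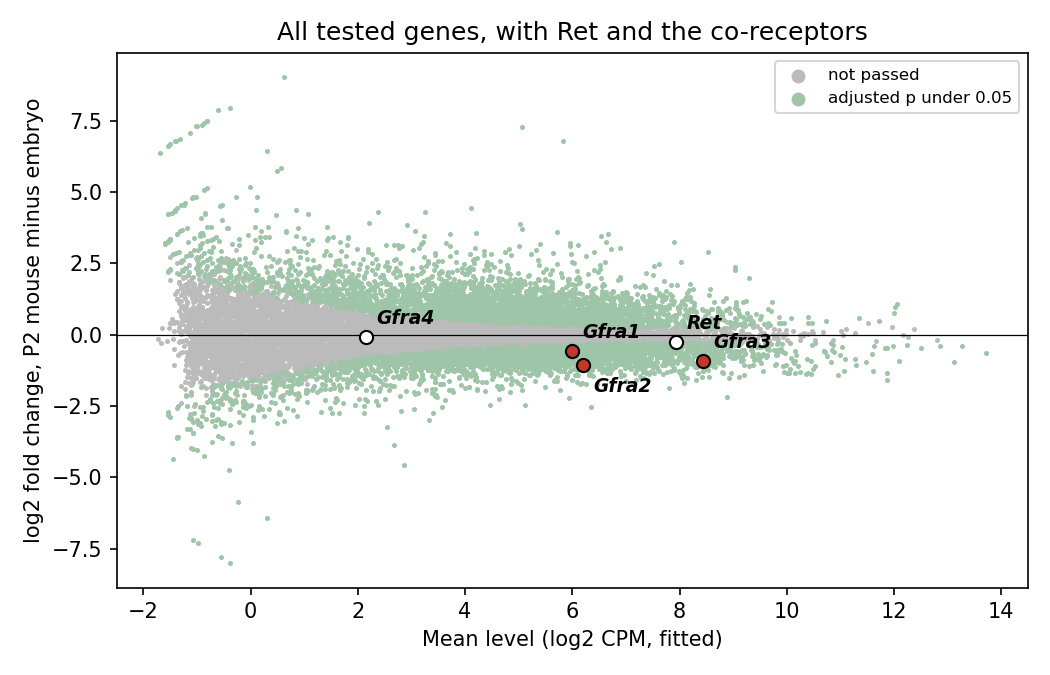
log2 fold change (P2 mouse minus embryo) against the fitted mean level in log2 CPM for 15568 tested genes, green where the edgeR adjusted p is under 0.05. The 5 genes are circled, red where they passed; Gfra2, Gfra3 and Gfra1 lie below 0 among many other genes that passed.

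Gfra1 was not called when either P2 mouse library was left out, though its value moved little from -0.56. Fewer of all genes were called in those fits too. Without the P2 male Gfra1 stood at -0.54 and without the P2 female at -0.57. With sex as a term, again the P2 male alone against the embryo pair, it stood at -0.58 and was not called. Ret moved across the threshold the other way, at -0.38 without embryo C (edgeR adjusted p = 0.00598), and it was -0.17 without embryo B (edgeR adjusted p = 0.168). Gfra2 and Gfra3 passed without any 1 of the 4 libraries. Each of these fits leaves 1 library in a group, which is assumed to vary like the remaining pair, from which alone the spread is taken.

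The transcripts of the 6 genes differ in base composition. The GC content of the longest transcript was 58.7% for Gfra4, 57.1% for Gfra3, 53.3% for Gfra2, 51.4% for Ret, 49.7% for Gfra1 and 37.3% for Gfral. With offsets for GC content and transcript length, Gfra3 stood at -0.46 (SE 0.0875, edgeR adjusted p = 0.00531). Gfra2 stood at -0.81 (SE 0.107) and Gfra1 at -0.66 (SE 0.123), both still called, and Ret at -0.32 was called lower too (SE 0.0961, edgeR adjusted p = 0.0334). Gfra4 turned to 0.38 (SE 0.263, edgeR adjusted p = 0.302). In that fit 4 of the 5 genes were called lower, against 20.3% of all genes, and none higher, against 12.8%. With the offsets and sex as a term, Gfra2 and Gfra3 were called lower, against 7.71% of all genes (5.01% were higher).

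A further scaling took size factors from the 13 sensory neuron markers alone. It set the median of all genes to 0.49, since the markers were mostly lower in the P2 mouse pair. Under the usual scaling 8 fell, 2 rose and 3 did not pass (median -0.49), beside 20.0% of all genes lower and 22.3% higher. None of the 5 genes passed under the neuron-marker scaling (edgeR adjusted p between 0.0821 and 0.855). There 3.42% of all genes were called lower and 33.9% higher. On this scale Gfra2 stood at -0.59, Gfra3 at -0.45, Gfra1 at -0.078, Ret at 0.23 and Gfra4 at 0.37. Relative to the median of all genes, these values were -1.08, -0.94, -0.57, -0.25 and -0.11. New size factors shift all genes by nearly the same amount, so this subtraction brings back the usual scaling and adds no separate result. The markers themselves ranged from -1.58 for the neuronal tubulin gene Tubb3 to 0.86 for the sodium channel gene Scn9a, under the usual scaling, and the 5 receptor genes lay within that range. Of the 13 Schwann cell markers 12 were higher in the P2 mouse pair (median 2.68), beside 22.3% of all genes. The part of these markers in the values of Gfra1 was not tested.

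**Figure D3:**
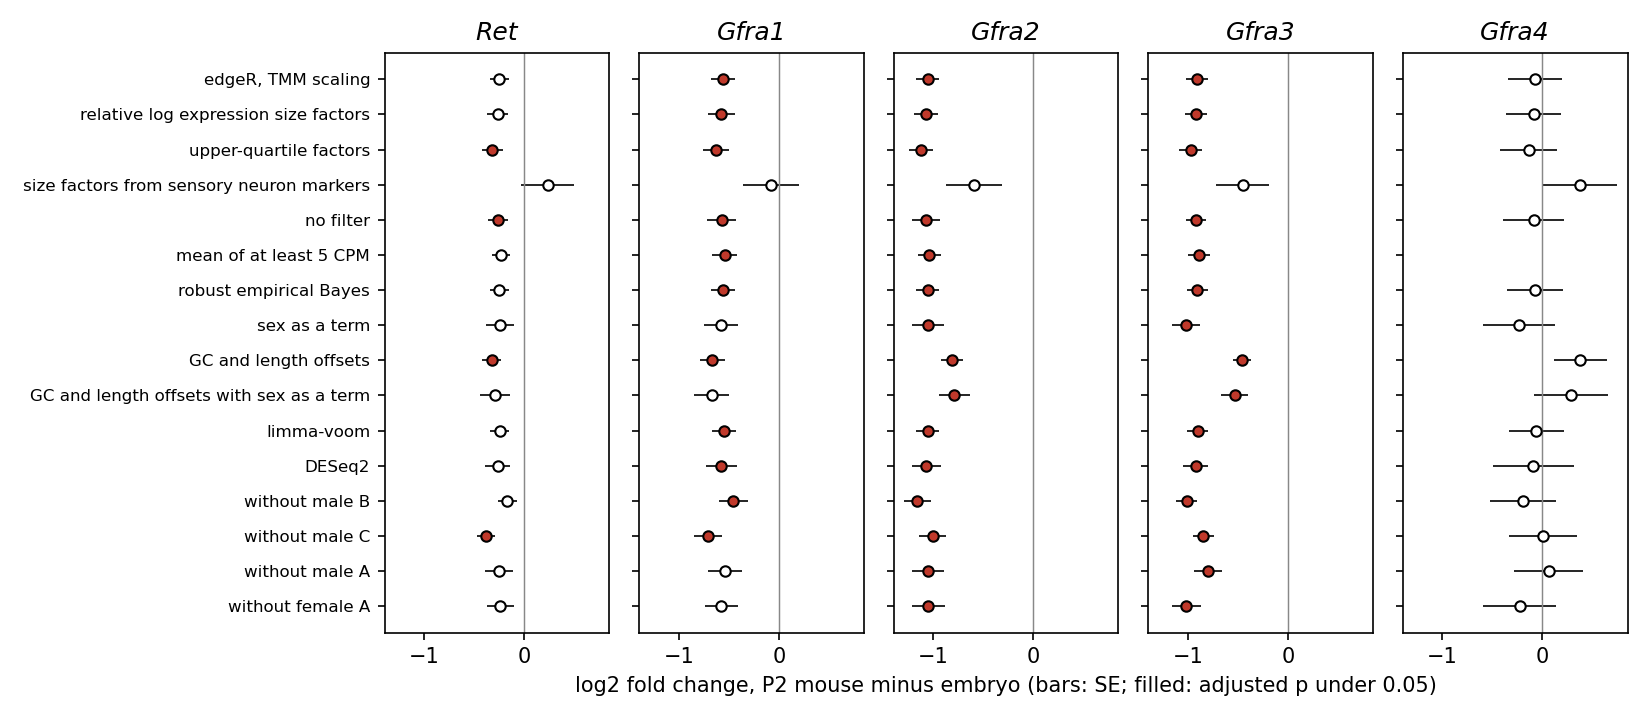
log2 fold change (P2 mouse minus embryo) of each gene under each way of fitting, with the SE as bars, filled where the edgeR, limma or DESeq2 adjusted p is under 0.05. Gfra2 and Gfra3 are lower under every setting and pass under all but the neuron-marker scaling, which also turns Ret and Gfra4 above 0; Gfra4 also lies above 0 with the GC and length offsets and without embryo C or the P2 male.

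The ratio of a co-receptor to Ret within 1 library does not depend on the scaling between libraries, though it does depend on any bias that acts differently on the 2 transcripts. Gfra3 exceeded Ret 5.51-fold in embryo B, 7.15-fold in embryo C, 3.67-fold in the P2 male and 4.31-fold in the P2 female, by RPKM. Gfra2 stood at 0.695 and 0.894 of Ret in embryo B and embryo C, and at 0.450 and 0.452 in the P2 male and the P2 female. Gfra1 stood at 0.389 and 0.377 of Ret, against 0.304 and 0.315. For each of these 3 co-receptors both P2 mouse libraries had the lower ratios, whereas the ratios of Gfra4 overlapped (between 0.0490 and 0.0704). The share of all genes whose ratios to Ret did not overlap was not computed. By fold change 36.8% of all tested genes stood lower than Ret, so a lower ratio by itself sets none of these co-receptors apart. The change in log2 ratio was -0.81 for Gfra2, -0.66 for Gfra3 and -0.31 for Gfra1, against SDs within the pairs of 0.182, 0.221 and 0.0349. From the fold changes fitted with GC and length offsets, the same changes relative to Ret were -0.49 for Gfra2, -0.14 for Gfra3, -0.34 for Gfra1 and 0.70 for Gfra4 (0.17 without the offsets). For Gfra3 the value with the offsets was smaller in size than the SD of its uncorrected ratios within the pairs (0.221). No spread was computed for ratios with the offsets. The ratios are given as values and were not tested; an exact permutation test of 2 libraries against 2 cannot give a two-sided p below 0.333.

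Summed over the co-receptors, the RPKM was 6.65 and 8.49 times that of Ret in embryo B and embryo C, and 4.48 and 5.14 times in the P2 male and the P2 female. Gfra3 made up between 81.9% and 84.3% of the summed co-receptor RPKM, and here the pairs overlapped. The share of Gfra2 was 10.5% in both embryo libraries, 10.0% in the P2 male and 8.79% in the P2 female. The share of Gfra1 was 5.86% and 4.44% in the embryo pair and 6.78% and 6.12% in the P2 mouse pair. Gfra4 took 0.738% and 0.768% in the embryo pair and 1.27% and 1.37% in the P2 mouse pair. Thus the shares of Gfra1 and Gfra4 were higher, and that of Gfra2 lower, in both P2 mouse libraries, with no test. These shares come from RPKM without GC and length offsets. In the fit with the offsets Gfra1 fell by more (-0.66) than Gfra3 (-0.46), which makes up most of the sum. Shares with the offsets were not computed.

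**Figure D4:**
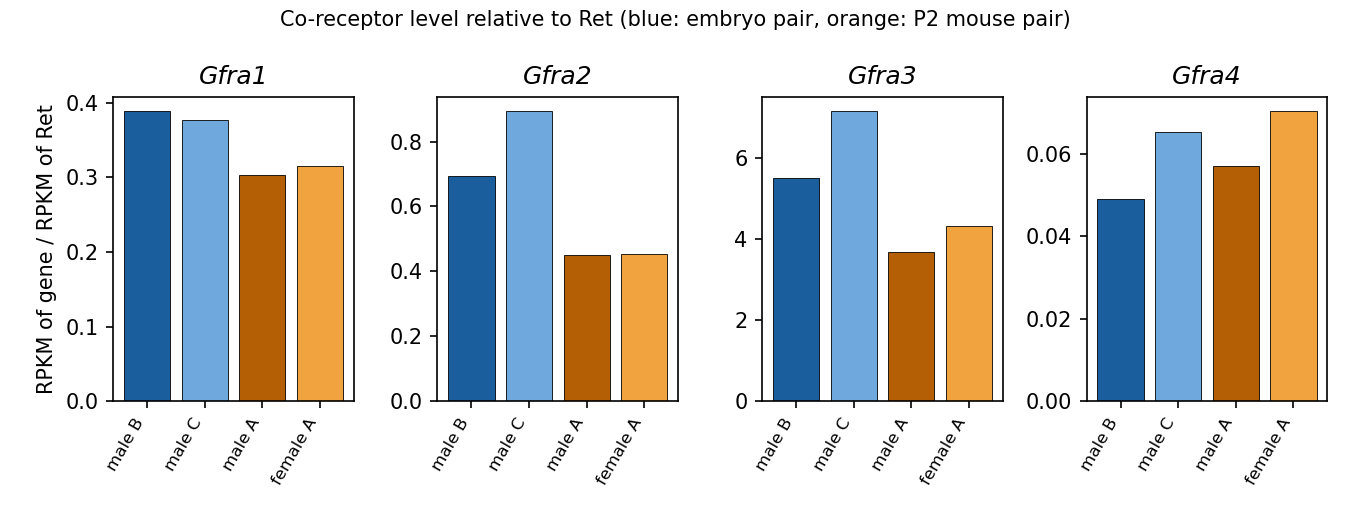
RPKM of each co-receptor over the RPKM of Ret in the same library, with a bar per library from 0 and a separate axis for each gene. For Gfra1, Gfra2 and Gfra3 both orange bars (P2 mouse pair) are lower than both blue bars (embryo pair); for Gfra4 they overlap. With GC and length offsets the change relative to Ret shrinks from -0.66 to -0.14 for Gfra3.

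The title of the series names male and female ganglia, and here the female is a single library. Adding a term for the pools sets the P2 female against the P2 male and takes the spread from the 2 embryo libraries (1 residual degree of freedom). Ret stood at -0.015 (SE 0.157) in the female relative to the male on the log2 scale, Gfra1 at 0.037 (SE 0.189), Gfra2 at -0.0060 (SE 0.177), Gfra3 at 0.22 (SE 0.159) and Gfra4 at 0.29 (SE 0.409). None of the 5 passed the edgeR test (adjusted p = 1 for each), against 0.0193% of all genes called. None had an unadjusted p under 0.05, against 1.45% of all genes. Without the pool term, the P2 female against the 3 males, Gfra2 stood at -0.79 (SE 0.531) and Gfra3 at -0.54 (SE 0.494), and again none passed (edgeR adjusted p between 0.951 and 0.971, and 0% of all genes called). The SEs leave room for changes in either direction, so these values do not show that the sexes are alike.

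Among partners of these receptors at the membrane, Itgb1, the integrin beta-1 gene, rose in the P2 mouse pair (0.91, SE 0.0836, edgeR adjusted p = 0.000249), as did the co-receptor relative Gas1 (1.55), from a mean of 1.13 to 3.30 CPM. Gas1 was not called without the P2 male (1.43), without the P2 female (1.67) or with sex as a term (1.66). Sdc3, which encodes the GDNF-binding proteoglycan syndecan-3, fell by 0.52, though it was not called with the neuron-marker scaling (-0.063), with the offsets (-0.37) or without the P2 male (-0.35). Ncam1, an alternative GDNF receptor that works with Gfra1, stood at -0.18 and did not pass (0.29 with the neuron-marker scaling). Of the 6 genes of that list 2 rose and 1 fell, with a median of -0.10, where 22.3% of all genes rose and 20.0% fell. Of the 4 neurotrophin receptor genes, Ntrk2, the TrkB gene, fell (-1.03), and it was called in all alternatives but the neuron-marker scaling (-0.57). Ngfr was called at -0.99 (edgeR adjusted p = 0.0401), but that value rested on embryo C. It stood at 107 and 235 scaled CPM in the embryo pair and at 75.4 and 97.2 in the P2 mouse pair, and at -0.35 without embryo C (edgeR adjusted p = 0.0951). It was not called in 10 of the 15 alternatives, limma-voom and DESeq2 among them.

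Of 27 tested adaptors and enzymes recruited to Ret, 11 were higher and 5 lower, with a median of 0.15, beside 22.3% and 20.0% of all genes. Dok5, one of the docking proteins of Ret, fell from a mean of 17.5 to 4.03 CPM (-2.13, SE 0.220), and was called lower with the offsets and with the neuron-marker scaling too. Pdlim7, whose product binds the tail of Ret, fell by 1.11, Dok4 by 0.57 and Grb2 by 0.62, none of them called with the neuron-marker scaling. With the offsets Dok4 stood at -0.18 and was not called, and Grb2 at -0.39; Grb2 was not called without the P2 male (-0.56). Pik3r1, a regulatory subunit of PI3 kinase, rose (0.94, SE 0.0877), as did Grb10 (0.88) and Pik3ca (0.79). With GC and length offsets 3 genes of this list were called higher and 3 lower, beside 12.8% and 20.3% of all genes, and there Pik3r1 stood at 0.30 and Pik3ca at -0.15. Of 12 Ras, ERK and AKT pathway genes 4 were higher and 6 lower, beside 22.3% and 20.0% of all genes. Mapk3, the ERK1 gene, fell from a mean of 890 to 426 CPM (-1.06, SE 0.0783, edgeR adjusted p = 0.000141), and stood at -0.60 with the offsets and at -0.59 with the neuron-marker scaling, where it was not called. With the offsets 5 genes of that list were called lower and none higher, beside 20.3% and 12.8% of all genes. With the neuron-marker scaling, 13 adaptors were higher and 1 lower, and 5 pathway kinases were higher and 0 lower, beside 33.9% and 3.42% of all genes.

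Dusp6, which encodes an ERK phosphatase induced by receptor signalling, rose in the P2 mouse pair. It stood at 64.3 and 81.3 scaled CPM in embryo B and embryo C and at 268 and 225 in the P2 male and the P2 female (1.76, SE 0.142, edgeR adjusted p = 0.000173), and it was called higher under the offsets (1.79) and the neuron-marker scaling (2.23) as well. Of the Sprouty feedback inhibitors, Spry2 fell by 0.52 and Spry4 by 0.74, neither of them called with the neuron-marker scaling; Spry4 was not called without the P2 male either (-0.61). Of the 14 negative regulators 8 were higher and 2 lower, beside 22.3% and 20.0% of all genes, and with the offsets 3 and 2, beside 12.8% and 20.3%. Of 8 tested genes known to respond to Ret in the developing kidney, Dusp6, Met and Spred2 were higher and none lower, beside a median of 0.48 and the same 22.3% of all genes. Dusp6 and Spred2 also belong to the 14 negative regulators, so the lists share genes and are not independent. Spred2 was not called with sex as a term (0.54), without the P2 male (0.71) or without the P2 female (0.55). Met went from 5 and 21 counts in the embryo pair to 213 and 166. Etv5, a transcription factor of the same list, stood at 0.025 and did not pass (-0.040 with upper-quartile factors). The immediate early genes, which also respond to cell handling, were higher in 7 of 8 cases (median 1.51), beside 22.3% of all genes. The part of these early genes in the rise of Dusp6 was not tested.

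Of the transcription factors known from Ret-expressing sensory neurons, Runx1, the factor of nonpeptidergic nociceptors, was higher in the P2 mouse pair (0.46, SE 0.101), but stood at 0.0044 with the offsets and was not called without the P2 female (0.43). Maf was higher (0.73) but was not called with the offsets (0.30), and Pou4f1 fell by 0.49 but was not called with the neuron-marker scaling (-0.020) or without the P2 male (-0.39). Runx3, a factor of proprioceptors, had 15 and 26 counts in the embryo pair and 0 and 2 in the P2 male and the P2 female. Mafa had at most 1 count in a library. Of the 9 tested genes of this list 2 were higher, 2 lower and 5 did not pass, beside a median of 0.027 and 22.3% and 20.0% of all genes. With the offsets none was higher and 4 were lower (median -0.41), beside 12.8% and 20.3% of all genes. With the neuron-marker scaling 4 were higher and 1 lower (median 0.52), beside 33.9% and 3.42%. Pou4f1, Isl1 and Tlx3 are themselves among the markers that set this scaling. Their values under it, such as that of Pou4f1 near 0, are therefore not independent of it.

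**Figure D5:**
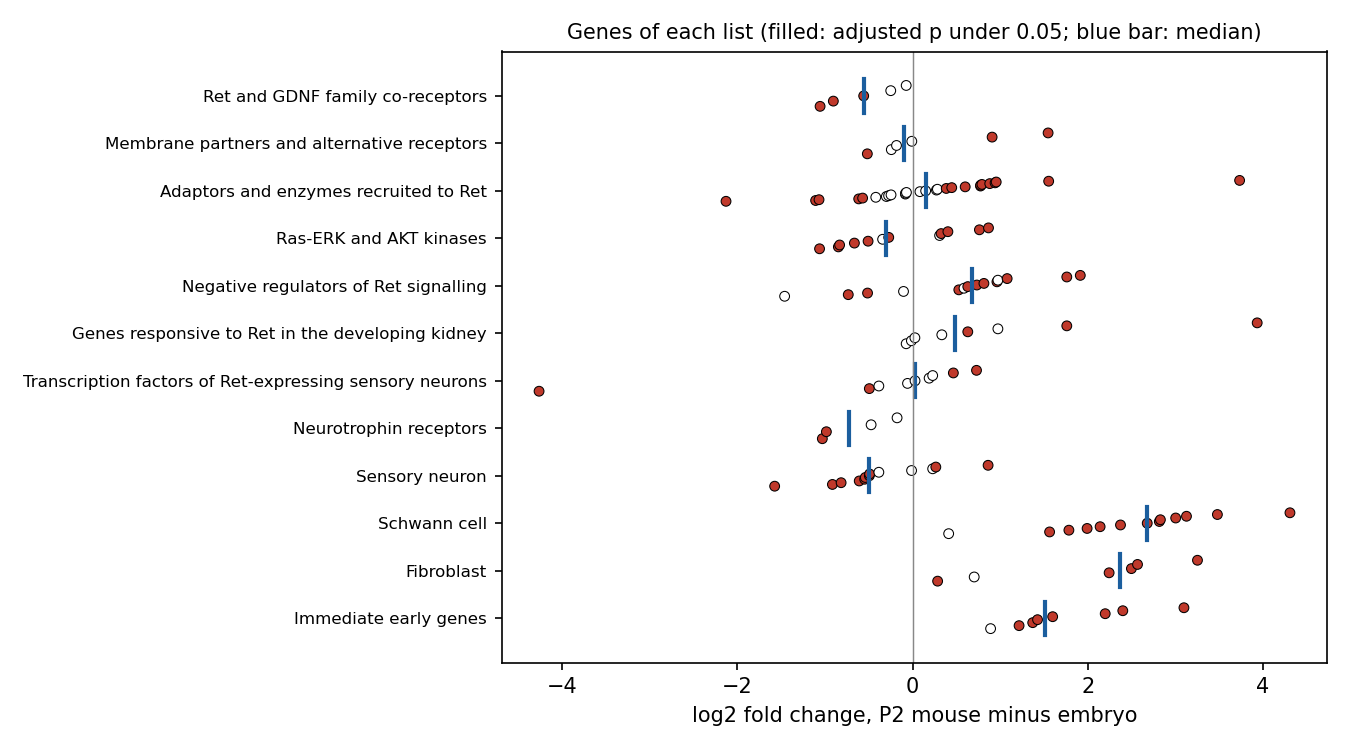
log2 fold change (P2 mouse minus embryo) of each tested gene by list, filled where the edgeR adjusted p is under 0.05, with the median as a blue bar. The co-receptors lie at or below 0, beside the sensory neuron markers, and the Schwann cell genes all lie above 0; Ret and Gfra4 turn above 0 with the neuron-marker scaling, and Gfra4 with the offsets.

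The profiles of the 5 genes over the 4 libraries were compared with those of the protein-coding genes with a mean of at least 5 CPM, by the distance between centred values of log2(CPM + 0.5). Gfra2 and Gfra3 were each other's nearest among the 5 (distance 0.211), and Ret lay nearest to Gfra1 (0.308). Ntrk2 was among the 3 genes nearest to Gfra2 (0.0384), behind Trappc9 (0.0236) and Shisa5 (0.0243). Nearest to Gfra3 were H2-DMa, Mrpl37 and Dlg4, nearest to Ret Trappc1, Eif2b5 and Atrip, nearest to Gfra1 Mis18a, Higd1a and Psmb1, and nearest to Gfra4 Cyth2, Fam13c and Fam129b. A profile over 4 libraries is easily matched. Within a distance of 0.1 there were 132 of 10180 genes for Ret, 69 for Gfra1, 33 for Gfra2, 22 for Gfra3 and, of 10181, 44 for Gfra4.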

How the data were processed

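RNA sequencing of sorted Ret-EGFP-positive dorsal root ganglion cells gave 4 libraries, grouped by the pool label. The count values were deposited as whole reads for each gene. The submitters' processing notes name Subread featureCounts (1.4.5) and the build GRCm38.p2. Deposited CPM were recomputed here as counts scaled to the gene total of their library, and deposited RPKM as that CPM per kilobase of the listed exon length. Not given in the sources used here are the strand setting, the aligner, how multiply matching reads were treated and which annotation release was used. Symbols from GENCODE M21 were matched to 40254 of 41388 genes (97.3%). Library totals ran from 17388493 to 28066448 counts, and a count of 0 was read as at most 3 counts.

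For the pairs, quasi-likelihood tests of edgeR (4.0.16, under R 4.3.3) were run on all genes that passed filterByExpr (minimum count 10, minimum total 15), with TMM factors between 0.961 and 1.05 and Benjamini-Hochberg adjustment at 0.05. SEs were derived from each log2 fold change and its F statistic. Sex was tested with the pool description as a term. In the same fit the pool coefficient sets the P2 male alone against the embryo pair, much as leaving out the P2 female does. Alternatives were other scalings, no filter or a mean of at least 5 CPM, robust fitting, sex as a term, limma-voom (limma 3.58.1), DESeq2 1.42.0, GC and length offsets per library (mgcv 1.9.3) and leaving out each library. On simulated data for the pairs, 50 genes were changed at each fold and 15160 genes were tested. The test recovered 16% of genes changed 1.5-fold, 70% of genes changed 2-fold and 84% of those changed 4-fold. It called 4 of 14970 unchanged ones. In the real data 42.3% of all genes were called, and the adjusted p depends on how many genes change. Recovery with as many changed genes as in the real data was not tested.

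The members, lists and tests were chosen with earlier results of these data known. Genes of a list were named by level (the 3 highest by mean RPKM) and, per direction, by the smallest adjusted p (up to 3), and each gene's 3 nearest profiles were named. Tubb3, Scn9a and Mafa, outside that rule, were chosen after their values were seen. Some genes that the rule names are not reported here.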

Additional observations from a re-analysis of the deposited data

How the results depend on the processing

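Of 15 alternatives each, Gfra1, Gfra2 and Gfra3 were lower in all 15 and Ret in 14, while Gfra4, with 14, was lower in 9 and never called; it had no value with the minimum mean of 5 CPM. Gfral had no count and so no value. With the neuron-marker scaling the values were 0.23 for Ret, 0.37 for Gfra4, and -0.078, -0.59 and -0.45 for Gfra1, Gfra2 and Gfra3, which were not called. With GC and length offsets, alone and with sex as a term, Gfra4 stood at 0.38 and 0.28. Ret was called lower with upper-quartile factors (-0.32), without a filter (-0.26) and with the offsets (-0.32). Gfra1 was not called with sex as a term (-0.58) or with it and the offsets (-0.67). Leaving out 1 library moved Ret between -0.38 and -0.17, Gfra1 between -0.71 and -0.45 and Gfra4 between -0.23 and 0.062, and Gfra2 and Gfra3 were called lower each time. Relative to Ret, the offsets, an alternative added after the values were seen, gave -0.49 for Gfra2, -0.14 for Gfra3 and 0.70 for Gfra4. The cause of these shifts was not tested.

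The number of genes called between the pairs was 6584, 3679 with sex as a term and 1969 with sex and the offsets. It was 3616 without the P2 male and 4036 without the P2 female, within a range of 3616 to 6926 over the libraries left out. The share of calls that were higher was 52.7%, 90.8% with the neuron-marker scaling and 38.6% with the offsets. No paired analysis was possible because the labels give the libraries letters and no number shared between the pairs. Gfra4, with 68 to 136 counts a library, is the gene whose depth limits the comparison.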
